A study of Saccharomyces cerevisiae with 167 samples.

Results

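The pentose phosphate genes of budding yeast described here are ZWF1 (YNL241C), SOL3 (YHR163W), SOL4 (YGR248W), GND1 (YHR183W), GND2 (YGR256W), TAL1 (YLR354C), NQM1 (YGR043C), TKL1 (YPR074C) and TKL2 (YBR117C), together with YBR116C, the open reading frame (ORF) named beside TKL2. They were chosen by name, with no measured value in the rule. Each gene has 1 ORF probe, and the intergenic probe on the 5' side of each gene was added by the naming of the probes. This gave 10 ORF probes of 6269 on the arrays and 10 intergenic probes of 5811, or 20 probes of 13029 in all. Of the 10 genes, 9 had at least 1 intergenic probe, since NQM1 has a pair of them (probes 0 and 1) and YBR116C has none of its own. The TKL2 probe lies between TKL2 and TEF2, an elongation factor gene read in the other direction, and the GND2 probe lies between GND2 and COQ6, a coenzyme Q synthesis gene read in the other direction. Signal at these divergent probes cannot be assigned to 1 of the neighbours. The annotation also places a tRNA gene between COQ6 and GND2, and it holds no gene of the name YBR116C.

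The pentose phosphate pathway oxidises glucose 6-phosphate to a pentose phosphate and returns the remaining sugar phosphates to glycolysis. Its oxidative steps make NADPH, which reduces glutathione and thioredoxin and feeds biosynthesis, and its other steps make ribose phosphate for nucleotides. In yeast several steps have a pair of paralogs, a main form used in growing cells (SOL3, GND1, TAL1, TKL1) and a minor form (SOL4, GND2, NQM1, TKL2), while the first enzyme, glucose-6-phosphate dehydrogenase, has the single gene ZWF1.

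The study measured mRNA, histone H4, acetylated H4 and the chromatin remodeller Snf2 on 167 dual-colour arrays. Snf2 is the ATPase subunit of the SWI/SNF complex, which moves and evicts nucleosomes. Every value below is the log2 of the Cy5 over the Cy3 signal of an array, with the median of that array's probes set to 0. Total RNA of heat-shocked wild-type cells was set against RNA of unstressed cells on 3 arrays, and RNA of stationary-phase cells against RNA of log-phase cells on another 3. H4 carried a Myc tag and was precipitated with an antibody to it, whereas acetylated H4 was taken with its own antibody. Both were compared on the same array between states (3 arrays each for heat shock and for stationary phase) and against sonicated genomic DNA (3 arrays per state). Acetylated H4 was also compared with H4 on the same array (3 arrays per state). Snf2, Myc-tagged as well, was set against input DNA in unstressed cells (3 arrays) and heat-shocked cells (5 arrays). Time courses of heat shock covered wild-type cells and cells labelled as deleted for SNF2. For mRNA, the time courses used poly(A) RNA at 0, 30, 60, 300 and 900 s, with control RNA of unstressed wild-type cells in the other channel for both strains. The labels of the chromatin time courses give codes from T0 to T900 without a unit. Single arrays compared deletions of SNF2, CHD1, ISW1 and ISW2, which all encode chromatin remodelling ATPases, with wild-type cells at 30 and 39 degrees C, and 39 with 30 degrees C in each strain. Nothing in the labels says that the arrays of one group were grown as separate cultures, and p-values therefore measure the spread between arrays, which may be technical.

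The SNF2 probe was checked before any value of the deletion was used. On the H4 time-course arrays it lay between -2.80 and -0.85 in the deletion and between -0.12 and 0.42 in wild-type cells, with no overlap. On the acetylated H4 arrays it lay between -3.09 and -1.20 in the deletion and between -1.52 and -0.25 in wild-type cells, and these ranges overlap. The labels give DNA of the deletion strain as the reference of sets 2 and 3 of the latter, where this probe lay between -3.09 and -1.33 in the deletion. Such low values do not go with a reference that lacks SNF2 as well, and which DNA was used was not tested. On the mRNA time-course arrays the SNF2 probe did not separate the strains: it lay between -0.64 and 0.02 on the 6 arrays labelled snf2 deletion and between -0.34 and 0.67 on the 7 wild-type arrays. The mRNA arrays are therefore called "labelled snf2 deletion" below. Median values of the deposited arrays lay between -0.14 and 0.26. Probe sequences were not used here, so whether the probe of one paralog also binds RNA or DNA of the other was not tested. Likewise, whether the YBR116C probe shares sequence with TKL2 was not tested.

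After heat shock the 4 minor forms rose 6.47-fold or more, while none of their main forms rose. Of the 10 ORFs, 6 rose and 1 fell at an adjusted p under 0.05 (limma, Benjamini-Hochberg over all ORF probes), where 34.5% of all ORF probes passed in either direction, 16.6% upwards and 18% downwards. In bulk RNA, more RNA per cell and more cells with that RNA cannot be told apart. The median of the 10 log2 ratios was 1.71, beside -0.03 for all ORF probes tested. TKL2, a transketolase that moves carbon units between sugar phosphates, gave log2 ratios of 3.67, 3.91 and 3.64 on the 3 arrays, a 13.4-fold rise. Its main form TKL1 gave -1.15, -0.47 and -1.33 and fell by 0.99 on the log2 scale. The TKL2 arrays were all high and close together, the TKL1 arrays were all below 0, and the ranges lie far apart.

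SOL4, a 6-phosphogluconolactonase that opens the lactone made by the first enzyme, gave 3.83, 3.99 and 3.60, a 14.0-fold rise. SOL3, its main form, gave -0.26, 0.36 and -0.44, with a mean of -0.12 and an adjusted p of 0.69 (limma). The SOL4 values were high on every array, while those of SOL3 fell on both sides of 0.

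GND2, a 6-phosphogluconate dehydrogenase that makes NADPH, gave 2.81, 3.31 and 2.39, a 7.14-fold rise. GND1, the main form of this enzyme, gave -0.09, 0.52 and -0.43 and did not pass the test. Both genes were highest on the second array and lowest on the third, so their difference on each array varied less than either gene did.

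NQM1, a transaldolase paralog of TAL1, gave 2.83, 2.72 and 2.53, a 6.47-fold rise. TAL1, the main transaldolase, gave 0.29, 0.28 and -0.04 and did not pass. YBR116C gave 4.27, 4.83 and 4.25, the highest of the 10 ORFs on each of the 3 arrays. ZWF1, whose enzyme commits glucose 6-phosphate to the pathway, gave 0.99, 0.76 and 0.43, a 1.66-fold rise that did not pass without the first array (log2 0.60, adjusted p = 0.118, limma). Wild-type time-course arrays before heat shock, against RNA of unstressed wild-type cells, already gave 0.98 and 0.95 for ZWF1. Stressed cells were in Cy5 throughout, and an offset of the probe was not tested. On the heat shock arrays limma found no gene-to-gene difference in spread and used 1 standard error, 0.19, for every gene. The SD over the 3 arrays ranged from 0.15 for TKL2 and NQM1 to 0.48 for GND1. With 3 arrays per gene and 1 shared spread, these SDs do not show that the genes differ in precision.

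**Figure D1:**
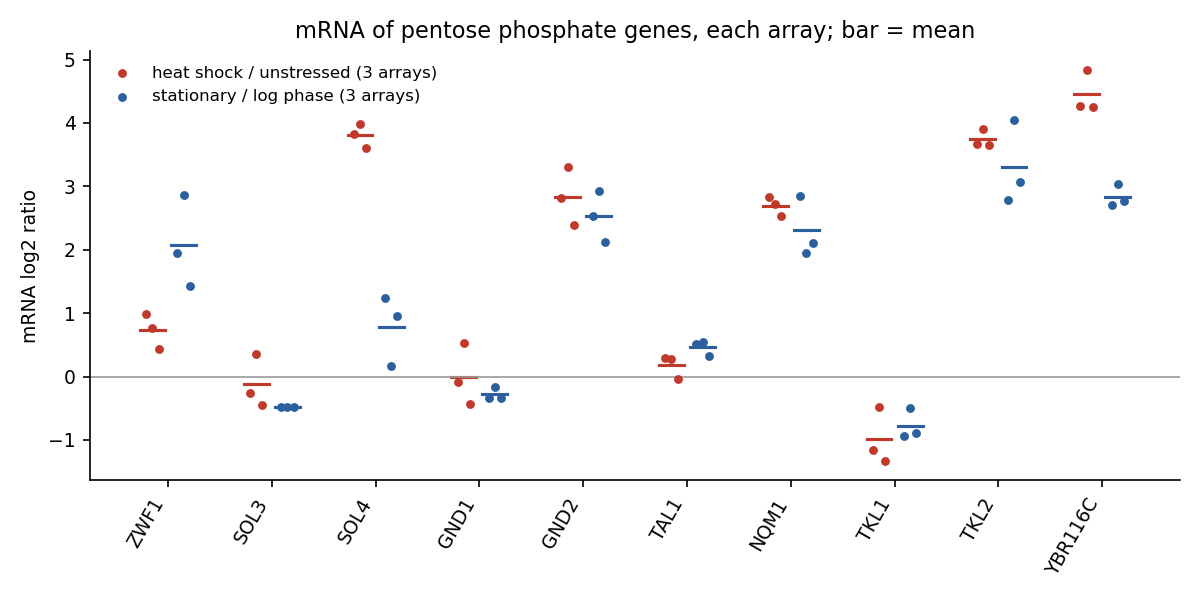
mRNA log2 ratio (vertical axis) of the 10 ORFs on each of the 3 heat shock arrays (red) and 3 stationary-phase arrays (blue); bars are means. SOL4, GND2, NQM1, TKL2 and YBR116C lie above 2.3 on every heat shock array, whereas SOL3, GND1, TAL1 and TKL1 lie below 0.6, and in stationary phase SOL4 drops to between 0.17 and 1.23.

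The difference within a pair can be read on each array, where array-wide shifts cancel. On the heat shock arrays TKL2 exceeded TKL1 by 4.73 ± 0.31 (log2, SD, n = 3), SOL4 exceeded SOL3 by 3.92 ± 0.25, GND2 exceeded GND1 by 2.84 ± 0.06, and NQM1 exceeded TAL1 by 2.52 ± 0.07. The order was the same on every array, with no overlap between the pairs TKL2 and TKL1 (4.38 to 4.97), SOL4 and SOL3 (3.63 to 4.09), GND2 and GND1 (2.79 to 2.90), and NQM1 and TAL1 (2.44 to 2.57). These are differences of log2 ratios and say nothing of which form is more abundant, since levels of different probes are not comparable.

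All 4 minor forms rose in stationary phase too, SOL4 by the least, and ZWF1 rose with them. Of the 10 ORFs, 7 rose and 2 fell (limma, adjusted p under 0.05), where 35.3% of all ORF probes passed in either direction, 17.6% upwards and 17.7% downwards. The median log2 ratio of the 10 was 1.43, beside 0.00 for all ORF probes. TKL2 gave 2.78, 4.05 and 3.07, a 9.85-fold rise (SE 0.24 on the log2 scale, adjusted p = 1.2e-05, limma). GND2 gave 2.53, 2.93 and 2.12, a 5.76-fold rise. NQM1 gave 2.85, 1.96 and 2.11, a 4.94-fold rise. All 3 genes were at or above 1.96 on every array, as was YBR116C with 2.71, 3.04 and 2.76.

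ZWF1 gave 1.94, 2.86 and 1.43 in stationary phase, a 4.21-fold rise, and each of these values lies above its highest value after heat shock, 0.99. SOL4 gave 1.23, 0.17 and 0.96, each below its lowest value after heat shock, 3.60. The 2 stresses were measured on separate arrays with different reference cells, and the difference between them was not tested.

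The main forms stood between -0.78 and 0.46 in stationary phase. TKL1 gave -0.94, -0.49 and -0.89 and fell by 0.78. SOL3 gave -0.48, -0.48 and -0.47 and fell by 0.48 (adjusted p = 0.035, limma). TAL1 gave 0.52, 0.54 and 0.32 and rose by 0.46 (adjusted p = 0.0443, limma), and GND1 gave -0.33, -0.16 and -0.35 and did not pass. Before heat shock, the wild-type time-course arrays gave 0.41 and 0.46 for TAL1 and 0.42 and 0.70 for SOL4. Whether an offset of these probes enters their rises was not tested. Without the first stationary-phase array SOL4, SOL3, TAL1 and TKL1 (-0.69, adjusted p = 0.0673, limma) did not pass and the total was 5. The calls of SOL3 and TAL1 were also lost without the second or the third array, and that of SOL4 without the third (0.70, adjusted p = 0.0757, limma). The differences within pairs were 4.08 ± 0.42 for TKL2 and TKL1, 2.81 ± 0.31 for GND2 and GND1, 1.85 ± 0.46 for NQM1 and TAL1, and 1.27 ± 0.55 for SOL4 and SOL3 (SD, n = 3).

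Of 12 further genes of the pathway and of ribose phosphate use, 2 rose and 7 fell after heat shock (limma, adjusted p under 0.05). Their median was -0.77, and 16.6% of all ORF probes were higher and 18% lower. RKI1, the ribose-5-phosphate isomerase, fell by 2.11, RPE1, the ribulose-phosphate epimerase, fell by 1.41, and PRS1, a subunit of the phosphoribosyl pyrophosphate synthase, fell by 1.41. SOL1 rose by 2.0 and SOL2 by 0.57, both relatives of SOL3 and SOL4. In stationary phase none of the 12 rose and 4 fell, with a median of -0.17, where 17.6% of all ORF probes were higher and 17.7% lower. Those that fell were RKI1 (-1.42), RPE1 (-1.29), PRS1 (-1.03) and PRS3 (-0.56).

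Of 14 NADPH and redox genes, 5 rose and 2 fell after heat shock (limma, adjusted p under 0.05), with a median of 0.34. Of all ORF probes 16.6% were higher and 18% lower. TSA1, a peroxiredoxin, rose by 1.01, IDP2, the cytosolic isocitrate dehydrogenase that makes NADPH, rose by 0.86, and TRX2, a thioredoxin, rose by 0.77. IDP1, the mitochondrial form, fell by 1.14, and GPX2, a glutathione peroxidase, fell by 1.12. In stationary phase 6 of the 14 rose and 2 fell, where 17.6% of all ORF probes were higher and 17.7% lower. IDP1 was there among those that rose, by 1.22. STB5, a transcription factor of pentose phosphate genes, rose by 1.73 in stationary phase and was at 0.14 after heat shock, where it did not pass. Of the neighbours across the divergent probes, COQ6 rose by 0.65 after heat shock, and TEF2 fell by 0.65 in stationary phase.

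The mRNA time course placed the rise between 60 and 300 s in wild-type cells. SOL4 stood at 0.42 and 0.70 on the arrays before heat shock, at 1.01 after 30 s and 0.83 after 60 s, at 4.13 after 300 s, and at 3.52 and 3.84 after 900 s. TKL2 stood at 0.05 and -0.11, then at -0.16, -0.10 and 3.43, and at 3.25 and 3.998 at the end. Both had reached their 900 s range or passed above it by 300 s, on a single array. GND2 stood at -0.21 and 0.09 before heat shock, at 0.10 and -0.23 after 30 and 60 s, at 2.50 after 300 s, and at 3.52 and 3.73 after 900 s. NQM1 stood at -0.29 and -0.40, then at 0.07, 0.27 and 2.16, and at 4.14 and 3.75 at the end. For GND2 and NQM1 the 300 s value lay between the early and the late arrays without overlap.

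At 900 s against 0 s in wild-type cells, 5 of the 10 ORFs rose and 2 fell, where 26.1% of all ORF probes passed, 10.4% upwards and 15.8% downwards (limma, adjusted p under 0.05, 2 arrays at each time). NQM1 rose by 4.29 ± 0.25 (log2, SE), GND2 by 3.68 ± 0.18, TKL2 by 3.66 ± 0.27, SOL4 by 3.12 ± 0.19 and YBR116C by 4.52 ± 0.18. TKL1 fell by 1.09 ± 0.24 and GND1 by 0.68 ± 0.20. Neither fall passed without either of the arrays before heat shock, and GND1 also did not pass without the second 900 s array, without either of the 0 s arrays labelled snf2 deletion, without centring or when centred on ORF probes (-0.71 to -0.49, adjusted p from 0.0521 to 0.209, limma). ZWF1 changed by 0.65 ± 0.22 (adjusted p = 0.0715, limma), SOL3 by -0.47 and TAL1 by -0.38, none of which passed. Without the first 900 s array ZWF1 (0.93) and SOL3 (-0.64) both passed.

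On the arrays labelled snf2 deletion, SOL4 rose by a similar amount as in wild-type cells, while the other minor forms rose by less. SOL4 too ended below its wild-type values of 3.52 and 3.84 at 900 s. SOL4 stood at -0.48 and -0.52 before heat shock and at -0.47, -0.51, 2.42 and 2.68 after 30, 60, 300 and 900 s, a rise of 3.18 ± 0.23 (log2, SE). GND2 stood at -0.25 and -0.18 before heat shock, at 0.26 after 300 s and at 0.98 after 900 s. TKL2 stood at -0.09 and -0.43 before heat shock, at 0.22 after 300 s and at 0.34 after 900 s. Its single late value lay above both early ones but far under the wild-type range of 3.25 to 3.998. NQM1 stood at -1.003 and -0.40 before heat shock, at 0.59 after 300 s and at 1.03 after 900 s. YBR116C stood at 0.29 and 0.53, then reached 1.72 and 1.95. Of the 10 ORFs, 4 rose and 1 fell, where 9.93% of all ORF probes passed, 3.85% upwards and 6.08% downwards: SOL4, NQM1 (1.73 ± 0.30), YBR116C (1.54 ± 0.22) and GND2 (1.19 ± 0.22) rose, and TAL1 fell by 0.88 ± 0.19. TKL2 changed by 0.60 ± 0.33 (adjusted p = 0.324, limma). The 900 s value of this strain is 1 array, assumed to vary like the rest, and the count was 2 without either of the wild-type arrays before heat shock and 3 without either of the 0 s arrays labelled snf2 deletion. GND2 and TAL1 passed under none of these 4 settings, while NQM1 did not pass without either wild-type array. With arrays scaled to 1 median absolute deviation GND2, TAL1 and YBR116C did not pass (adjusted p from 0.0788 to 0.117, limma).

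The test of the difference between the strains in the 900 s response called 2 of the 10, where 0.271% of all ORF probes passed and 0.176% were lower in the strain labelled snf2 deletion (4 of the 10 had an unadjusted p under 0.05). The 900 s arm labelled snf2 deletion is 1 array with no spread of its own, and the test takes its spread from the other groups. The difference, snf2 deletion minus wild type as labelled, was -2.49 ± 0.28 for GND2 (log2, SE, adjusted p = 0.0335) and -2.97 ± 0.28 for YBR116C (adjusted p = 0.0213, both limma). The estimates for TKL2 (-3.05 ± 0.43, adjusted p = 0.0581) and NQM1 (-2.56 ± 0.39, adjusted p = 0.0622) were as large and did not pass (limma), so these p-values do not set GND2 and YBR116C apart from them. SOL4 differed by 0.05 ± 0.30 (adjusted p = 0.958, limma), the smallest difference of the 5. Neither call held with arrays scaled to 1 median absolute deviation, or when 1 of the 0 s arrays of either strain was left out (GND2 -2.64 to -2.34, adjusted p from 0.118 to 0.259; YBR116C -3.10 to -2.85, adjusted p from 0.0642 to 0.259, limma). TKL2 passed without either of the wild-type 900 s arrays (-3.43 and -2.68), and NQM1 passed without the second of them (-2.75).

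Before heat shock the strains differed in 1 of the 10 ORFs, where 6.34% of all ORF probes passed and 4.42% were lower in the strain labelled snf2 deletion. SOL4 was lower by 1.06 ± 0.19 on the arrays labelled snf2 deletion (adjusted p = 0.0245, limma), so its similar rise started from a lower value and ended at 2.68 against 3.52 and 3.84. The call did not hold without any 1 of the 4 arrays (-1.20 to -0.92, adjusted p from 0.0818 to 0.194, limma).

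**Figure D2:**
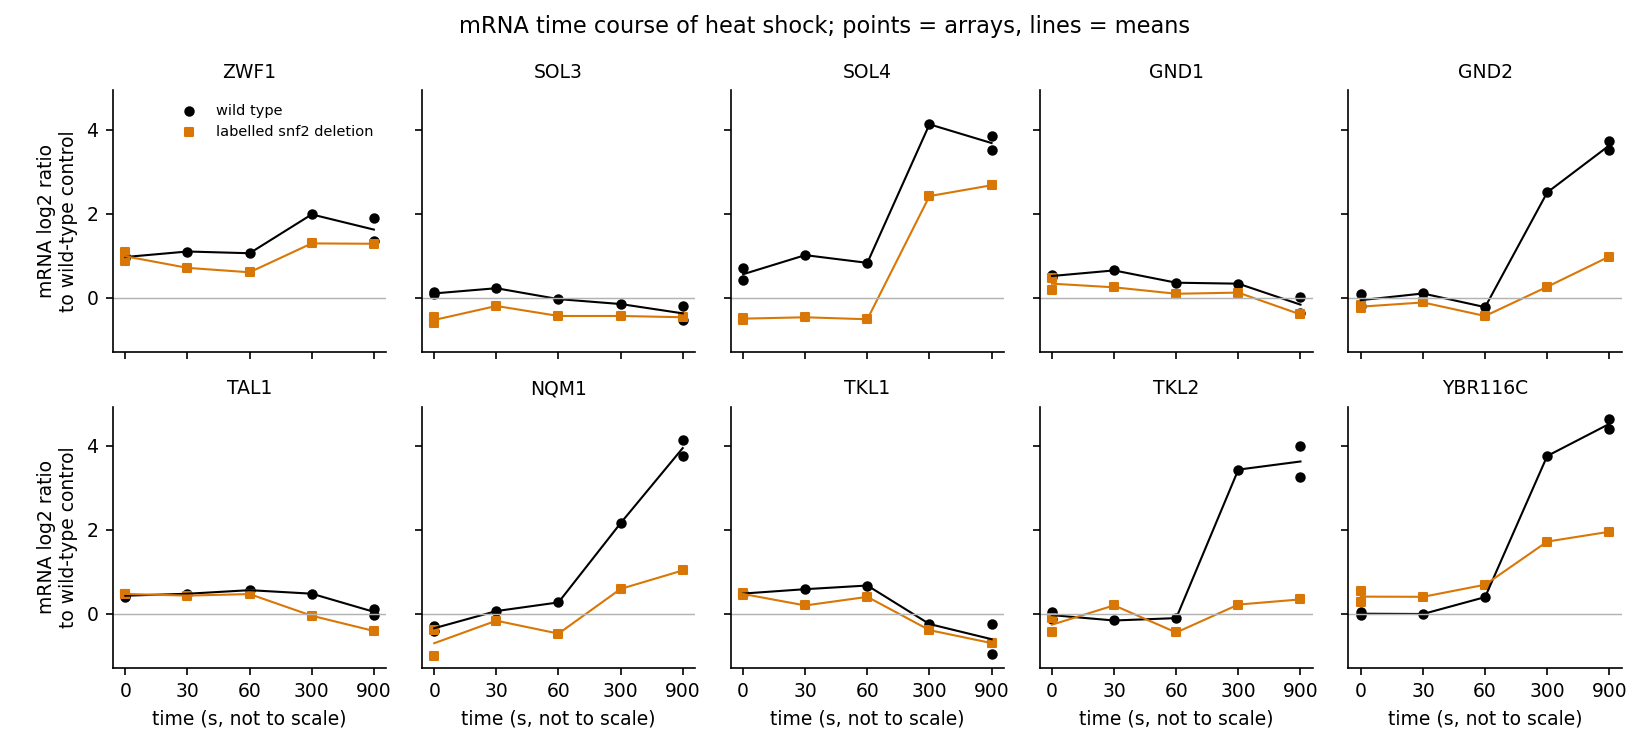
mRNA log2 ratio to the wild-type control (vertical axis) at 0 to 900 s of heat shock (horizontal axis, s, not to scale) for the 10 ORFs; points are arrays, lines join means, black is wild type and orange the arrays labelled snf2 deletion. GND2, NQM1, TKL2 and YBR116C end above 3.2 in wild type and below 2 in the other strain, whereas SOL4 ends at 3.52 and 3.84 in wild type and at 2.68 in the other strain.

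The single arrays have no replicates and give values only. Wild-type cells at 39 against 30 degrees C gave 4.76 for SOL4 and 2.38 for GND2, but 1.13 for NQM1 and 0.44 for TKL2, against 2.53 to 2.83 and 3.64 to 3.91 on the replicated heat shock arrays. The labels do not give a duration for either, and the cause of this gap was not tested. TKL2 at 39 against 30 degrees C gave 0.35 on the array labelled snf2 deletion, 3.02 in the chd1 deletion, 3.19 in the isw1 deletion and 4.68 in the isw2 deletion. Against wild type at 39 degrees C, TKL2 gave -0.52, 2.97, 3.65 and 3.75 in the same order. The 3 deletions other than snf2 thus stood far above the wild-type sample on these arrays, which itself showed little TKL2 response.

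SOL4 gave 3.79, 3.59, 3.31 and 2.81 against wild type at 30 degrees C in the snf2, chd1, isw1 and isw2 deletions. All 4 values are high, and that of snf2 is opposite in sign to the -1.06 of the time course. YBR116C followed TKL2 at 39 degrees C against wild type, with -0.55, 4.08, 4.13 and 4.60. Each strain was also hybridised in a closed loop of 4 arrays, so a 39 against 30 degrees C value can be computed from the other 3. The direct and the computed values of the 10 ORFs differed by -1.61 to 1.16, with a median absolute difference of 0.44 over 40 loops. The 40 loops are the 10 ORFs in each deletion and share the same wild-type array, so they are not independent. Most differences were above 0, while those of NQM1 were below 0 in every deletion. Each loop sums the error of 4 arrays, so 0.44 is a rough size below which differences between single arrays were not read. The CHD1 probe stood at -2.89 and -0.44 on its own 30 and 39 degrees C arrays, the ISW1 probe at -2.45 and -2.09, the ISW2 probe at -2.04 and -1.71 and the SNF2 probe at -0.40 and -1.34.

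Before stress, H4 was low on the 5' side of several of these genes. Against genomic DNA at 30 degrees C, the 5' probe of TAL1 gave -0.89, -0.84 and -0.44, at the 3.03 percentile of intergenic probes. The TKL2 probe, shared with TEF2, gave -0.64, -0.72 and -0.61 (4.06 percentile). The 5' probe of SOL4 gave -0.06, 0.04 and -0.08, close to the middle of intergenic probes (50.6 percentile). The ZWF1 ORF was low too, at -0.50, -0.34 and -0.49 (4.18 percentile of ORF probes), as was the SOL3 ORF at -0.47, -0.03 and -0.41 (8.26 percentile). The ORFs of TKL1, TAL1 and GND1 stood at the 25.9, 30.5 and 44.4 percentiles. Those of SOL4, GND2, NQM1, TKL2 and YBR116C lay between the 46.2 and the 75.5 percentile. In the separate log-phase arrays the ZWF1 ORF stood at the 20.6 percentile, the TKL2 5' probe at the 16.4 percentile, the TAL1 5' probe at the 8.97 percentile, the SOL3 ORF at the 54.7 percentile and the NQM1 ORF at the 18.8 percentile. The ranks thus differ between the sets, and the low rank of the SOL3 ORF and the middle rank of the NQM1 ORF were not found in the log-phase arrays.

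Heat shock lowered H4 at 10 of the 20 probes and raised it at 1 (direct arrays, limma, adjusted p under 0.05), where 20% of all ORF probes and 22.7% of intergenic probes passed in either direction. Of the ORF probes 8.82% were lower, and of the intergenic probes 13.7% were lower and 8.93% higher. The 5' probe of ZWF1 gave -1.01, -0.93 and -0.66, a fall of 0.87 ± 0.08 (log2, SE, adjusted p = 0.00117, limma). The TKL2 ORF gave -0.68, -0.75 and -0.52, a fall of 0.65 ± 0.07 (adjusted p = 0.00187, limma). These were the only probes of the 20 below -0.5 on all 3 arrays, one upstream of a gene with a modest mRNA rise and the other within a gene with a large one.

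Smaller falls were called at the SOL4 ORF (-0.29) and 5' probe (-0.32), the NQM1 ORF (-0.24) and 5' probe 0 (-0.33), the TKL2 5' probe (-0.30), YBR116C (-0.34), and the 5' probes of SOL3 (-0.26) and GND1 (-0.29). Every one of these probes was below 0 on all 3 arrays. The 5' probe of TAL1 gave 0.09, 0.40 and 0.49 and rose by 0.33. The GND2 ORF gave -0.11, 0.21 and -0.08 and its 5' probe -0.40, -0.20 and 1.32, so neither passed although GND2 mRNA rose 7.14-fold, and the single high value of the 5' probe is on the third array. Without that array this probe was at -0.30 and passed (adjusted p = 0.0207, limma), against 0.24 with it. The count of called probes depended on the arrays: it was 7 without the first, 2 without the second (the ZWF1 5' probe and the TKL2 ORF) and 12 without the third.

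Acetylated H4 fell at 7 of the 20 probes and rose at 3 on the direct arrays, where 25.1% of ORF probes and 28.4% of intergenic probes passed in either direction. Of the ORF probes 11.3% were lower and 13.8% higher, and of the intergenic probes 17.1% were lower and 11.3% higher. The TKL2 ORF gave -0.70, -0.997 and -1.01, a fall of 0.90 ± 0.10 (log2, SE, adjusted p = 0.0014, limma). The ZWF1 5' probe gave -0.62, -1.43 and -0.70, a fall of 0.92 ± 0.16 (adjusted p = 0.00598, limma). The probes that fell most in H4 were thus also the lowest for acetylated H4. Falls were also called at YBR116C (-0.74), the SOL4 5' probe (-0.62) and ORF (-0.54), and the 5' probes of SOL3 (-0.51) and TKL2 (-0.33). TKL1, whose mRNA fell, gave 0.85, 0.62 and 0.77 at its ORF and rose by 0.75 ± 0.09 (adjusted p = 0.00208, limma). TAL1 rose at the ORF (0.42) and the 5' probe (0.35). The 5' call of TAL1 did not hold without the first or without the third array, its ORF call without the third, and the TKL2 5' call without the first or the third (adjusted p from 0.0812 to 0.24, limma).

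**Figure D3:**
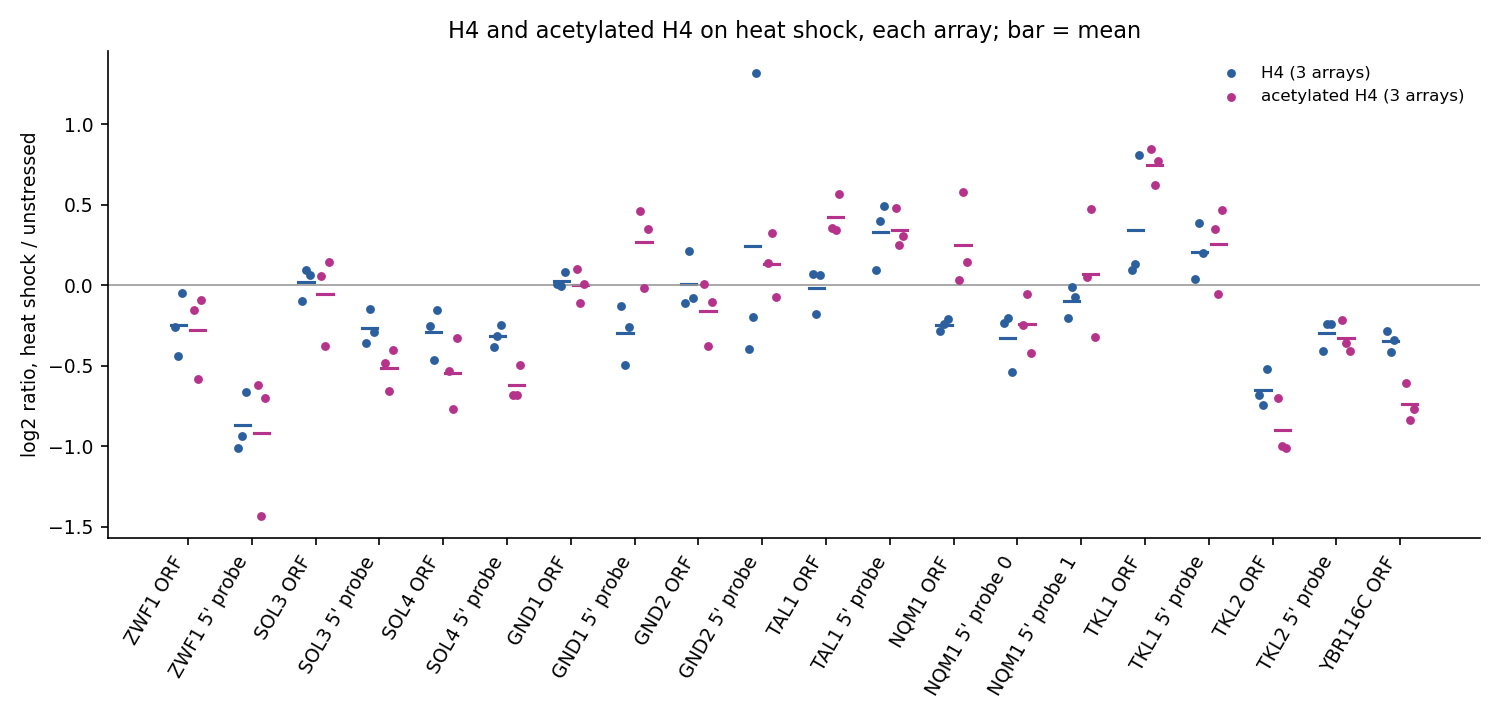
log2 ratio of heat-shocked over unstressed cells (vertical axis) for H4 (blue) and acetylated H4 (magenta) at the 20 probes, 3 arrays each; bars are means. The ZWF1 5' probe and the TKL2 ORF lie below -0.5 on all 6 arrays, the TKL1 ORF lies above 0.6 for acetylated H4, and the GND2 5' probe has 1 H4 array at 1.32.

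Against genomic DNA, 4 of the 20 probes differed in acetylated H4 between 39 and 30 degrees C (limma, adjusted p under 0.05), where 4.72% of ORF and 5.66% of intergenic probes passed. Of the ORF probes 2.95% were lower and 1.77% higher, and of the intergenic probes 3.85% were lower. The TKL2 ORF gave 0.28, 0.35 and 0.47 at 30 degrees C and -0.54, -0.24 and -0.72 at 39 degrees C, a fall of 0.87 ± 0.15 (adjusted p = 0.00802, limma). YBR116C fell by 0.84, from between 0.32 and 0.57 to between -0.64 and -0.27. The ZWF1 5' probe fell by 0.96, and the TKL1 ORF rose by 0.70, from between -0.68 and -0.31 to between -0.03 and 0.48. At each of these 4 probes the arrays of the states did not overlap, and the directions were those of the direct arrays. Overlap was not counted over all probes. Without the second array at 30 degrees C none of the 4 passed (TKL2 -0.87, adjusted p = 0.0537; YBR116C -0.77, adjusted p = 0.0587, limma). The ZWF1 5' call was also lost without array 1 or 3 at 30 degrees C or the first at 39 degrees C, and the TKL1 call without array 1 or 3 at 30 degrees C or the second at 39 degrees C.

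H4 against genomic DNA gave 0 calls among the 20, where 0.367% of ORF and 0.275% of intergenic probes passed (limma). An unadjusted p under 0.05 was found at 3 of the 20 and at 1477 of all probes. The TKL2 ORF changed by -0.41 ± 0.13 and the ZWF1 5' probe by -0.29 ± 0.15 there, and the TAL1 5' probe by 0.73 ± 0.15 (adjusted p = 0.0921, limma). The TAL1 5' probe passed without the first 39 degrees C array (0.73, adjusted p = 0.0304, limma) and with arrays scaled to 1 median absolute deviation (0.81, adjusted p = 0.0242, limma). Acetylated H4 per H4 at 39 against 30 degrees C gave 0 calls as well, where 0.0957% of ORF and 0.0344% of intergenic probes passed (limma). Here 3 of the 20 and 1982 of all probes had an unadjusted p under 0.05. The values ranged from -0.68 at the SOL4 ORF to 0.55 at the TKL1 ORF.

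In stationary phase few of these probes passed for chromatin, although TKL2, GND2, NQM1 and ZWF1 mRNA rose 4.21-fold or more. On the direct arrays 0 of the 20 passed for H4, where 3.01% of ORF and 2.13% of intergenic probes passed, and 0 for acetylated H4, where 20.1% and 19.7% passed (limma). At an unadjusted p under 0.05 there were 7 of the 20 and 2966 of all probes for H4. For acetylated H4 there were 5 of the 20 and 4970 of all probes. The TKL2 ORF changed by -0.35 ± 0.09 in H4 (adjusted p = 0.105, limma) and by -0.33 ± 0.17 in acetylated H4. The GND2 ORF changed by -0.51 ± 0.13 in acetylated H4 (adjusted p = 0.0534, limma), the lowest of the 20 values. Against genomic DNA neither H4 nor acetylated H4 had a call among the 20 or among all probes, that is, 0% passed (limma). At an unadjusted p under 0.05 there were 1469 and 2342 of all probes, and 1 and 5 of the 20.

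Acetylated H4 per H4 was higher in stationary than in log phase at 2 of the 20 probes, where 4.34% of ORF and 5.59% of intergenic probes passed (limma) and 3.25% of intergenic probes were higher. The GND1 5' probe gave -0.60, -0.49 and -0.73 in log phase and 0.44, 0.32 and 0.13 in stationary phase, a difference of 0.90 ± 0.16 (adjusted p = 0.0384, limma). The NQM1 5' probe 0 gave -0.43, -0.09 and -0.37, then 0.90, 0.48 and 0.63, a difference of 0.97 ± 0.18 (adjusted p = 0.04, limma). The groups did not overlap at either probe, 1 of them beside a main and the other beside a minor form. How many of all probes lack overlap was not counted here. Leaving out any 1 of the 6 arrays ended the call of NQM1 probe 0, and that of GND1 held without the third stationary array and was lost without any other (adjusted p from 0.0547 to 0.128 for the lost calls, limma). With the replicate number as a block the NQM1 call was lost too (adjusted p = 0.0558, limma), and with arrays scaled to 1 median absolute deviation both were lost. The NQM1 ORF gave -2.76, 0.93 and 0.15 in stationary phase, too scattered for a statement.

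Snf2 was found over input at 5 of the 20 probes in heat-shocked cells, and at 0 in unstressed cells, where 5.25% of ORF and 4.23% of intergenic probes passed (limma). In unstressed cells 4 of the 20 and 3396 of all probes had an unadjusted p under 0.05. In heat-shocked cells 25.3% of ORF and 20.8% of intergenic probes passed, and 13.2% and 13% were above input. The TKL2 5' probe gave 0.42, 0.81 and 1.59 as the lowest, median and highest of the 5 arrays, 0.98 ± 0.17 (log2, SE, adjusted p = 0.00761, limma), at the 98.8 percentile of intergenic probes. It lies upstream of TEF2 as well. In unstressed cells the same probe gave 0.39, 0.61 and 0.99 (adjusted p = 0.0826, limma), so its mean was already the highest of the 20 there. The SOL4 ORF gave 0.40, 0.40, 0.92, 0.97 and 0.71 after heat shock, against 0.02, -0.09 and 0.05 before. The ZWF1 5' probe gave 0.40, 0.36, 0.87, 0.74 and 0.37 after heat shock, against -0.37, -0.30 and -0.10 before. At the SOL4 ORF and the ZWF1 5' probe the heat shock and unstressed arrays did not overlap, whereas at the TKL2 5' probe they did. The ZWF1 ORF (0.45) and the TAL1 5' probe (0.40) were called too, the ZWF1 call not without array 1, 3 or 4 and the TAL1 call not without array 2, 3 or 4 (adjusted p from 0.0638 to 0.135, limma). The count was 3 without array 3 or array 4.

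The difference in Snf2 between heat shock and unstressed cells, fitted without pairing of arrays, gave 0 calls among the 20, where 0.0958% of ORF and 0.0172% of intergenic probes passed (limma). It was 0.80 ± 0.17 at the ZWF1 5' probe (adjusted p = 0.105), 0.68 ± 0.18 at the SOL4 ORF (adjusted p = 0.144) and 0.57 ± 0.20 at the SOL4 5' probe (adjusted p = 0.219, all limma). Of the 20 probes, these 3 had groups that did not overlap. How many of all probes lack overlap was not counted, so this does not set the 3 apart. The difference was 0.32 ± 0.27 at the TKL2 5' probe and 0.46 ± 0.17 at the GND2 5' probe. At an unadjusted p under 0.05 there were 2083 of all probes and 5 of the 20.

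**Figure D4:**
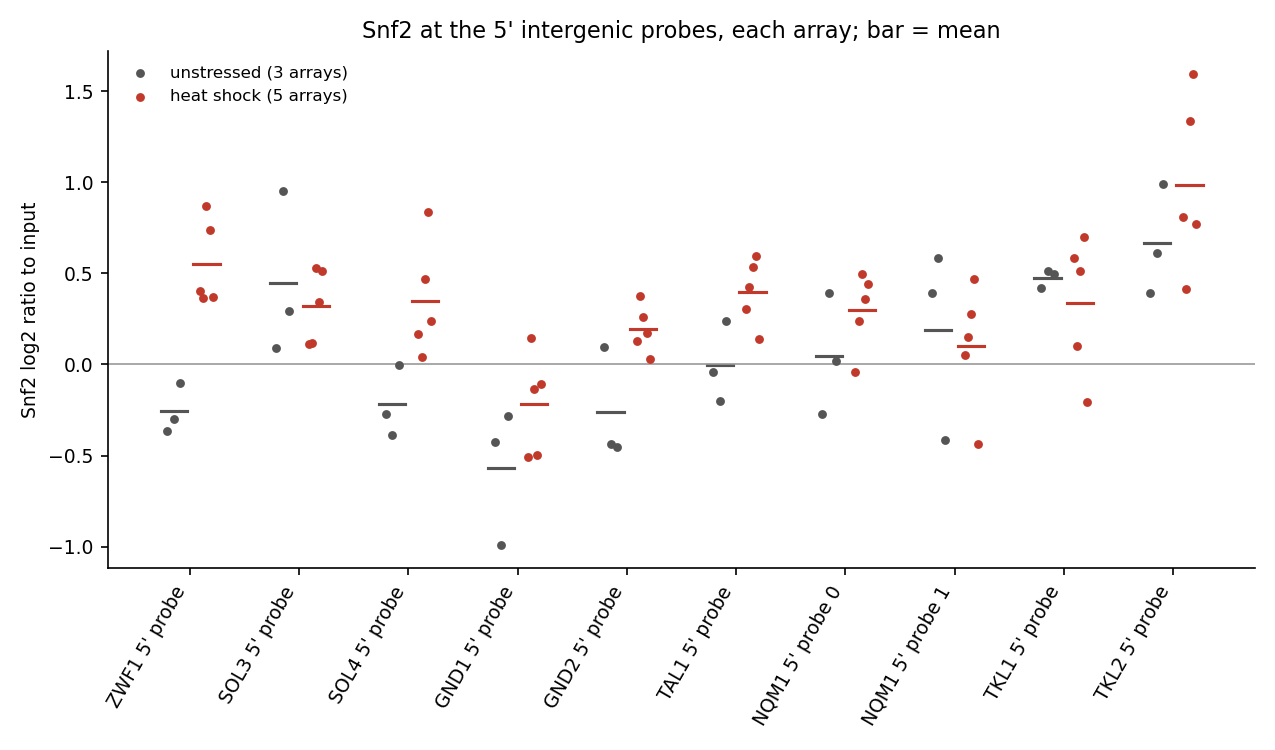
Snf2 log2 ratio to input (vertical axis) at the 10 intergenic probes in unstressed (grey, 3 arrays) and heat-shocked cells (red, 5 arrays); bars are means. The TKL2 5' probe has the highest mean in both states, with 1 heat shock array at 1.59, and the ZWF1 5' probe lies below 0 before and above 0.3 after heat shock.

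The chromatin time courses held few arrays and called little in fits without the set number as a block, which are those given unless stated. For H4, 0 of the 20 probes passed in the T900 against T0 response of either strain, in the difference of these responses or between the strains at T0 (limma). In wild-type cells 0.0319% of ORF and 0.086% of intergenic probes passed at T900, and in the other 3 tests 0 of all probes passed (798, 476 and 284 at an unadjusted p under 0.05). Of the 20, the number at an unadjusted p under 0.05 was 5 in wild-type cells (409 of all probes), 1 for the difference of the responses and 0 in the other tests. The TKL2 ORF in wild-type cells gave 0.32 and -0.05 at T0 in sets 2 and 3, -0.80, -0.34 and -0.36 at T300 and -0.81, -0.18 and -0.76 at T900 in sets 1 to 3. In the snf2 deletion it gave 0.26 and -0.05 at T0, 0.07, 0.12 and 0.05 at T300 and 0.45, 0.05 and 0.41 at T900. The strains overlapped at T0 and did not at T300 or T900. This separation was not counted over all probes, and the strains were not tested against each other at T300 or T900. The difference in the T900 response was 0.91 ± 0.33 (adjusted p = 1, limma).

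The ZWF1 5' probe showed the same order for H4. In wild-type cells it gave -0.28 and -0.32 at T0, then -1.60, -1.15 and -1.17 at T300. In the deletion it gave -0.10 and -0.44 at T0, then -0.38, -0.37 and -0.43 at T300. The wild-type arrays at T300 lay below all those of the deletion, as they did for the TKL2 ORF. This separation too was not counted over all probes. At T900 the mean change from T0 was -0.67 in wild-type cells and -0.03 in the deletion, a difference of 0.64 ± 0.35 that did not pass.

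For acetylated H4, 0 of the 20 passed at T900 against T0 in either strain, where 0.0798% of ORF and 0.0516% of intergenic probes passed in wild-type cells, and 0.16% and 0.0344% in the deletion (limma). At an unadjusted p under 0.05 there were 7 of the 20 and 1328 of all probes in wild-type cells. In the deletion there were 1 of the 20 and 859 of all probes. The TKL2 ORF in wild-type cells gave 0.61 and 0.26 at T0 and -0.82, -0.64 and -0.52 at T900, a change of -1.09 ± 0.30 (adjusted p = 0.13, limma). In the deletion it gave 0.68 and 0.74 at T0 and 0.72 and 0.91 at T900. The wild-type change passed with the set number as a block (-0.94, adjusted p = 0.0303, limma) and without centring (-1.15, adjusted p = 0.0448, limma). The difference of the responses between the strains was 1.19 ± 0.44 and did not pass, nor did any probe in that test (394 of all probes and 1 of the 20 at an unadjusted p under 0.05, limma).

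At T0 the strains differed in acetylated H4 at 1 of the 20 probes, where 0.99% of ORF and 1.12% of intergenic probes passed and 0.894% of ORF probes were higher in the deletion. The SOL4 ORF gave 1.02 and 0.98 in the deletion against -0.46 and 0.02 in wild-type cells, a difference of 1.22 ± 0.27 (adjusted p = 0.0167, limma). The SOL4 5' probe differed by 1.03 ± 0.27 (adjusted p = 0.0581) and the ZWF1 5' probe by 1.04 ± 0.36 (adjusted p = 0.208, both limma). The deletion stayed above wild type at the SOL4 ORF at T300 (0.11, 0.36 and 0.34 against -1.07, -1.09 and -0.74) and at T900 (0.37 and 0.22 against -1.20, -0.83 and -0.71). The estimates at T0 were above 0 for all 10 ORFs, from 0.26 to 1.22, of which the SOL4 ORF alone passed, and the median over all ORF probes was 0.13. At the 5' probes the estimates lay on both sides of 0, from -0.56 to 1.04. An unadjusted p under 0.05 was found at 3 of the 20 probes and at 1567 of all probes. The labelled genomic DNA reference of sets 2 and 3 differs between the strains, its part in these values was not tested, and T0 exists in these sets alone. The low SNF2 probe of the deletion in these sets does not go with that label. The SOL4 call was lost without set 2 (0.96, adjusted p = 0.528) and without set 3 (1.48, adjusted p = 0.268), and without set 1 the 5' probes of SOL4 and ZWF1 passed as well (adjusted p = 0.0226 and 0.0239, all limma). With arrays scaled to 1 median absolute deviation no call was left, and with the set number as a block the SOL4 5' probe passed (adjusted p = 0.0162, limma).

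**Figure D5:**
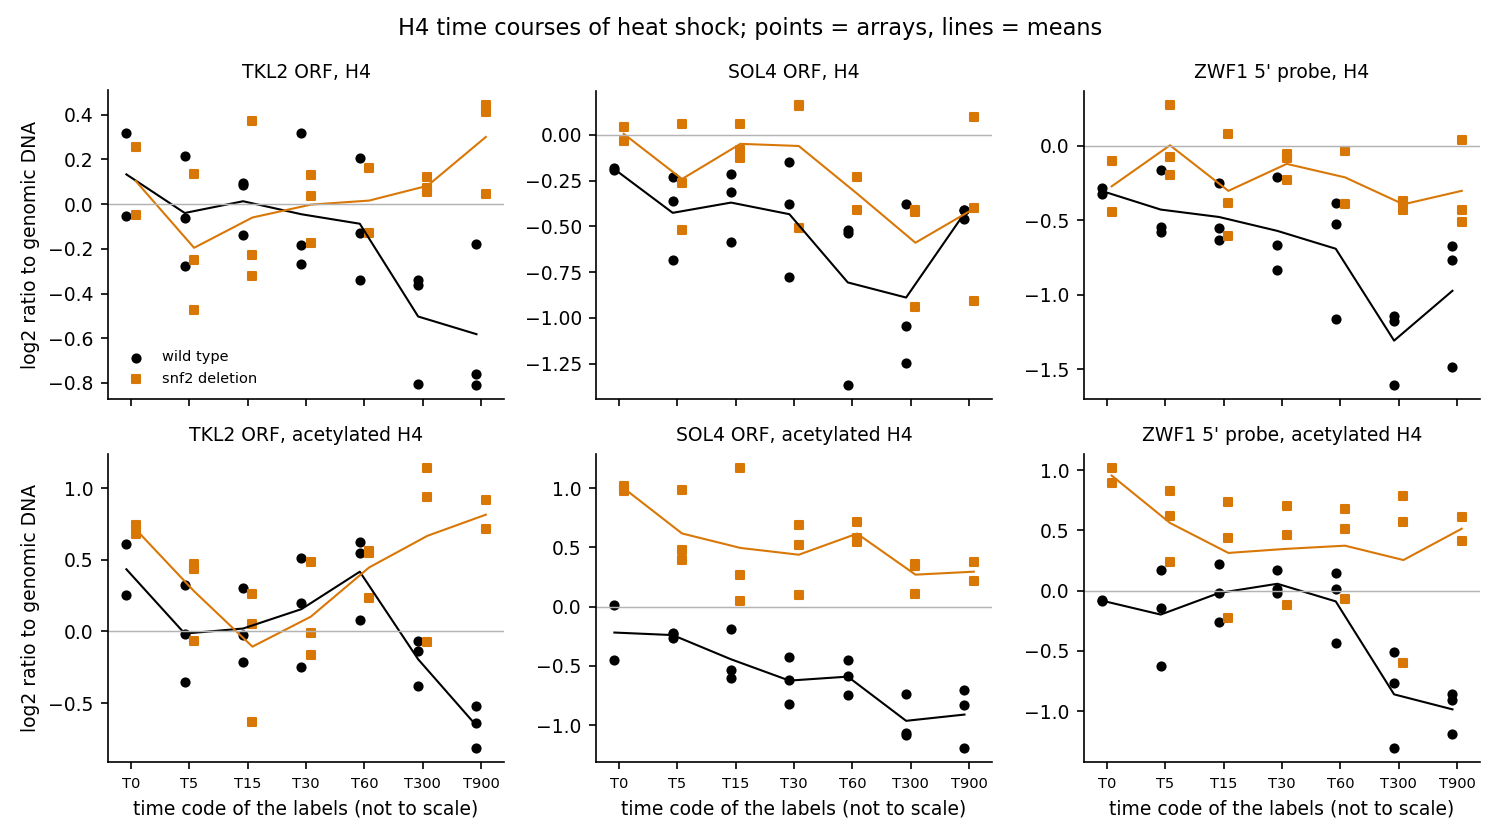
log2 ratio to genomic DNA (vertical axis) of H4 (top) and acetylated H4 (bottom) at the TKL2 ORF, the SOL4 ORF and the ZWF1 5' probe against the time code of the labels (not to scale); points are arrays, lines join means, black is wild type and orange the snf2 deletion. For H4 at the TKL2 ORF the strains do not overlap at T300 and T900, and at the SOL4 ORF acetylated H4 is higher in the deletion from T0 to T900. How many of all probes separate in this way was not counted.

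The members with similar mRNA patterns were compared with every other ORF over the 32 expression arrays, as a description without a test, since the arrays share strains and reference RNA. TKL2 was most like YBR116C (Pearson r = 0.948), GND2 (0.904) and TSA2 (0.884), a peroxiredoxin. GND2 was most like GPX1 (0.932), a glutathione peroxidase, HAB1 (0.911) and TSA2 (0.907). NQM1 was most like SPG1 (0.892), GND2 (0.887) and TKL2 (0.868). GND2 was thus among the 3 closest of 6262 ORF probes for both TKL2 and NQM1. SOL4 was most like STF2 (0.961), RTC3 (0.939) and PGM2 (0.919), a phosphoglucomutase, and had r = 0.678 with GND2 and 0.485 with TKL2. ZWF1 was most like YJL017W (0.817), RCI37 (0.814) and PRM8 (0.794), and its r with the other 9 members lay between -0.03 and 0.35. The 4 main forms correlated with each other at 0.505 (TAL1 with SOL3) to 0.84, and TKL1 had r = -0.72 with GND2 and -0.56 with TKL2.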

How the data were processed

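Per the labels, each deposited value is a log2 ratio, the Cy5 signal divided by the Cy3 signal of a probe, with stressed, mutant or precipitated material in Cy5. How the authors corrected background, normalized or filtered is not stated in these sources. The arrays give no counts, and precision is limited by how many there are. The median over 13029 probes was subtracted from each array, and repeats 2-a and 2-b of 1 H4 time-course set (r = 0.907) were averaged. A probe was fitted if every group had it on 2 or more arrays (1 where the group is 1 array). The fits used limma 3.58.1 (R 4.3.3; lmFit, eBayes, two-sided), and a probe was called at a Benjamini-Hochberg adjusted p below 0.05 across the probes fitted (ORF probes for mRNA). Direct arrays were tested against 0, 2 groups through their difference in mean, and time courses with 1 mean per strain and time and a shared spread. The fit was tested on simulated data. Names and neighbours come from the RefSeq annotation of assembly R64.

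The text names the members, the genes across divergent probes, and for TKL2, GND2, SOL4, NQM1 and ZWF1 the 3 ORFs with the highest Pearson r over the 32 expression arrays. From the lists of 12 other pathway genes and 14 NADPH genes, examples were taken after their values were seen. Members and lists were chosen with earlier results of these data known. Alternatives were no centring, centring on ORF probes, scaling to 1 median absolute deviation, complete probes only, robust eBayes, leaving out each replicate, and the replicate number as a block. Same-numbered Snf2 arrays deviated together weakly (r = 0.12, 0.19 and 0.11). The Snf2 values given are unpaired, and a fit with these numbers as a block was run as an alternative. In each other comparison of 2 groups at least 1 same-numbered pair had r under 0.1. In the time courses, array pairs of a set had a mean r of 0.28, 0.37 and 0.41 for H4 and 0.39, 0.28 and 0.0872 for acetylated H4. Single pairs reached down to -0.15 and -0.48. These sets too entered the main fits without a block, although each mean r for H4 lay above those of the Snf2 arrays. T0 has no set 1, so differences between sets can enter the T900 against T0 estimates.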

Additional observations from a re-analysis of the deposited data

Results flagged for a closer look

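In a test of the difference of the 900 s against 0 s response (limma), 2 members passed between wild-type cells and the strain labelled snf2 deletion. For GND2 the difference was -2.49 on the log2 scale (adjusted p = 0.0335), with a response of 3.68 in wild-type cells and 1.19 in the other strain. For YBR116C it was -2.97 (adjusted p = 0.0213), with responses of 4.52 and 1.54. The late value of the strain labelled snf2 deletion is 1 array, so its spread is taken from the other groups, and the SNF2 probe did not separate the strains on these arrays. Both calls were lost without any 1 of the 4 arrays at 0 s (adjusted p from 0.0642 to 0.259, limma) and with arrays scaled to 1 median absolute deviation (adjusted p = 0.176 for GND2 and 0.144 for YBR116C, limma). Separately, the 5 Snf2 arrays of heat-shocked cells, the one group of 4 to 10 arrays once the time-course repeats were averaged, were examined at each of the 20 probes for an array far from the rest, and none was found.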

How the results depend on the processing

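Over the named probes and their alternatives, 4114 values kept their call and direction or moved by less than the spread between replicates, 119 without a call moved by more, 100 lost and 26 gained a call, and 1 turned: the GND2 5' probe in H4 on heat shock, at 0.24, ranged from -0.297 to 0.561 with 1 array left out and was negative without replicate 3. Leaving out 1 array at a time moved the number of called members from 9 to between 5 and 7 for stationary-phase mRNA, from 11 to between 2 and 12 for direct heat shock H4, and from 4 to between 0 and 4 for acetylated H4 against genomic DNA at 39 and 30 degrees C. The ranges were 0 to 1 for H4 against genomic DNA (from 0), 0 to 1 for acetylated H4 per H4 in stationary phase (from 2), 0 to 1 for Snf2 in unstressed cells (from 0) and 3 to 6 for Snf2 on heat shock (from 5). In the time courses they were 0 to 3 for acetylated H4 between strains at T0 (from 1), 2 to 6 for mRNA labelled snf2 deletion (from 5), 0 to 4 for the difference of mRNA responses (from 2) and 0 to 1 for mRNA between strains at 0 s (from 1). Scaling arrays to 1 median absolute deviation gave 1 for H4 against genomic DNA on heat shock, 0 for acetylated H4 per H4 in stationary phase, 0 for acetylated H4 between strains at T0, 2 for mRNA labelled snf2 deletion and 0 for the difference of mRNA responses. Without centring Snf2 on heat shock gave 8 and wild-type acetylated H4 at T900 gave 1. The counts of heat shock mRNA and wild-type mRNA at 900 s stayed within 1.5 times of the main count under all alternatives run.

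With the replicate number as a block, acetylated H4 per H4 in stationary phase gave 1, wild-type acetylated H4 at T900 gave 1 and acetylated H4 between strains at T0 gave 2. Over all probes the block took wild-type acetylated H4 at T900 from 8 calls to 123, and acetylated H4 between strains at T0 from 130 to 436. The difference of the acetylated H4 responses stayed at 0. For Snf2, where same-numbered arrays deviated together, the block gave 0 members as without it, and it moved no other count of members by over 1.5 times. For mRNA it was run on the arrays with a set number, giving 7 for wild type at 900 s and 1 between strains at 0 s. No paired analysis was possible for the other mRNA time-course tests because their late array carries no set number.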
